A study of Homo sapiens with 4 samples.

Results

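The 10 immune checkpoint genes were followed on 4 expression arrays, namely the ligands CD274, PDCD1LG2, CD80, CD86, CD47, CD276 and LGALS9 and the receptors PDCD1, CTLA4 and HAVCR2. The 10 genes were taken by name from the gene probes of the arrays, with every probe kept, and had 16 of the 58185 probes and made up 10 of the 43311 gene names. Of them, 5 were measured by 1 probe, 4 by 2 probes and 1, LGALS9, by 3 probes. Total RNA came from MDS-L, a human cell line established from a myelodysplastic syndrome (MDS), and from its derivative MDS-L/CDA, in which transduction of the deaminase CDA gave resistance to 5-azacytidine (AZA). Each line was grown with interleukin-3 and received AZA at 1 μM, or the vehicle DMSO at 0.1%, over 72 h, which gave the groups MDS-L vehicle, MDS-L AZA, MDS-L/CDA vehicle and MDS-L/CDA AZA. Every group was 1 array, so the differences below have no replicate check and no test, and the errors given are technical. The labels conflict, since the titles and the design text write 1 mM for the dose, and 1 field names vehicle for the MDS-L AZA array and AZA for the MDS-L/CDA vehicle array. The groups used here follow the title, the source and the description of each array, which give the same treatments.

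Checkpoint proteins sit on the surface of immune cells and of the cells they meet, and pass on signals that hold back or help an immune response. PD-L1, encoded by CD274, and PD-L2, encoded by PDCD1LG2, bind the receptor PD-1, encoded by PDCD1, and restrain T cells, while CD80 and CD86 help T cells through CD28 and restrain them through CTLA4. CD47 binds SIRPA on macrophages and inhibits phagocytosis, galectin-9, encoded by LGALS9, is a ligand of TIM-3, encoded by HAVCR2, and CD276 encodes B7-H3, a member of the same ligand family as CD80 and CD86. AZA is a cytidine analogue that enters RNA and DNA and inhibits DNA methyltransferases, and these genes are studied in myeloid malignancies because blasts can carry several of the ligands.

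The sequences that the measurements depend on are given first. A probe reports only the 60 bases it matches, so for CD274, whose signal was low everywhere, and for CD47, CD276 and LGALS9, which were measured, a probe is shown in lower case 5′ to 3′, with its hg19 position from the array files. Each of those printed has a reading frame with no stop codon. The CD274 probe lies at chr9:5465546-5465605 on the plus strand, and the other CD274 probe lies further along the gene at chr9:5468310-5468369. The CD47 probe covers chr3:107778363-107779622 on the minus strand, a span of 1260 bases that includes an intron. The CD276 probe shown, the dimmer of its pair, lies at chr15:73996699-73996758 on the plus strand, and the brighter lies at chr15:74006791-74006850. The LGALS9 probes, all on the plus strand, lie at chr17:25967739-25967798, chr17:25969369-25973575 and chr17:25974458-25975920 and are shown because the gene has near-identical relatives.
CD274 probe: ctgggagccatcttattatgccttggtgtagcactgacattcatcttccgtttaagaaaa
CD47 probe: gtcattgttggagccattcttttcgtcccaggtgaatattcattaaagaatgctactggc
CD276 probe: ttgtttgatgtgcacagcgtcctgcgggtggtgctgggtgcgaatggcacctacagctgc
LGALS9 probe at the lowest coordinate: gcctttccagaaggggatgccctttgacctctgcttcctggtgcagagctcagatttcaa
LGALS9 probe in the middle: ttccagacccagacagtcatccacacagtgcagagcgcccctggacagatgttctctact
LGALS9 probe at the highest coordinate: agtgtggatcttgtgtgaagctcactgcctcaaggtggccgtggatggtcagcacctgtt

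AZA acts on DNA methylation, which in human cells falls mostly on CG dinucleotides, so the promoters are shown for the gene with the largest difference, CD86, and for CD47, which had the most CG dinucleotides among the members. They are the 250 bases before the RefSeq start on GRCh38.p14, 5′ to 3′ on the strand of the gene, with each CG in capitals. CD86 has a pair of starts, with windows at chr3:122055112-122055361 and chr3:122077534-122077783 on the plus strand. The CD47 window is chr3:108091032-108091281 on the minus strand.
CD86 upstream of the first start: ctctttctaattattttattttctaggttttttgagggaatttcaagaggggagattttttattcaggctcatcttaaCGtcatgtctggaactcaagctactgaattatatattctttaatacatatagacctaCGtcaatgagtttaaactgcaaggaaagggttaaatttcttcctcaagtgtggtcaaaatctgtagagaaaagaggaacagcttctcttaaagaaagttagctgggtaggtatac
CD86 upstream of the second start: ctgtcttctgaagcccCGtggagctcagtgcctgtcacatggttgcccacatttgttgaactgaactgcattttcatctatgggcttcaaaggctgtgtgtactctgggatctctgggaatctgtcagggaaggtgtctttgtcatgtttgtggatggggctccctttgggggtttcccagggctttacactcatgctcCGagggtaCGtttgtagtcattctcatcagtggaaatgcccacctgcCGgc
CD47 upstream: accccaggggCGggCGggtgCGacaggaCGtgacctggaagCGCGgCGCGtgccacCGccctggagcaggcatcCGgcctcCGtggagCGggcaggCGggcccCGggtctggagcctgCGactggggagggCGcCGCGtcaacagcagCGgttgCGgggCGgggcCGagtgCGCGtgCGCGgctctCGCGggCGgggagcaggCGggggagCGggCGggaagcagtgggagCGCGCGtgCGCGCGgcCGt

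The median CG count was 14 in 35116 promoter windows of 300 bases, each running from 250 before to 50 after a start. CD86 had 3 and 4 CG dinucleotides in its windows, CTLA4 had 4 and LGALS9 had 2. CD80 had 7 and PDCD1 had 10, while CD274 had 22, CD276 had 37 and 28, and CD47 had 45. Thus CD47, CD276 and CD274 lay above the median of all promoters and the other members with a promoter in the table lay below it. Among the 8 members with a promoter in the table, CD86 and LGALS9 were detected with few CG dinucleotides and CD274 was not detected with many. The promoters of HAVCR2 and PDCD1LG2 are not described here. To place the values, of 8732 array genes matched to a promoter with at least 22 CG dinucleotides, the count of CD274, 22.6% were not well above background on any array. Of 2697 genes with at most 4, the higher count of CD86, 16.0% were well above background in MDS-L vehicle. These counts use the brightest probe of a gene and, where it has several promoters, the window with the most CG dinucleotides. The limits 22 and 4 were taken from these members after their counts were known. Methylation itself was not measured on these arrays.

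**Figure D1:**
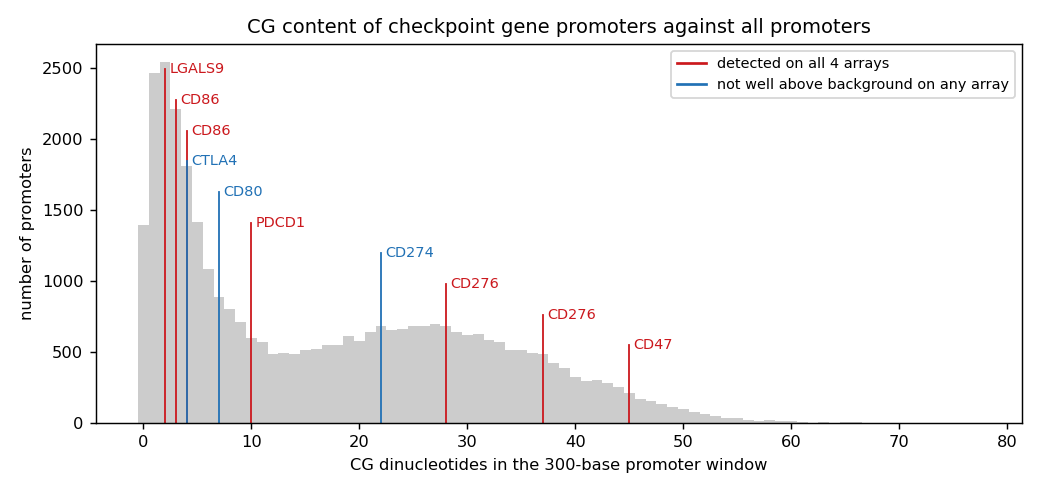
CG dinucleotides in the 300-base promoter window (horizontal axis) against the number of RefSeq promoters with that count (grey bars), with 1 vertical line for each of the 10 promoters of 8 members; line heights only separate the names. Red lines, genes detected on all 4 arrays, run from LGALS9 at 2 to CD47 at 45, and blue lines, genes not well above background on any array, run from CTLA4 at 4 to CD274 at 22.

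CD274 is induced by interferon in many cells, so its window was searched for the letters GAAANNGAAA, a core of interferon-response elements, on both strands. The window held 2 overlapping matches, starting at bases 43 and 49, and LGALS9 held 1, starting at base 242. No other member window held these letters, which were present in 3.57% of all promoters. The 250 bases before the CD274 start, at chr9:5450292-5450541 on the plus strand, are shown with both matches, read on the opposite strand, as 1 run of capitals. A match is a description of the letters and says nothing of a factor.
CD274 upstream: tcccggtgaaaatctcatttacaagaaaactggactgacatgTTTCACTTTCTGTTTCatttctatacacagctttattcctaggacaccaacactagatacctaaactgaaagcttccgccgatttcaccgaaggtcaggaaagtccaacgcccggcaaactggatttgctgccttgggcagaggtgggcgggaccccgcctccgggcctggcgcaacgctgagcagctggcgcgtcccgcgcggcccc

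Between 32.6% and 36.5% of probes were well above background on each array by the scanner software's flag, no spot was saturated, and 17382 genes, 40.1%, were detected on at least 1 array. Signals were divided by the 75th percentile of the array, which was 52.5 with vehicle and 52.9 with AZA in MDS-L, and 40.8 with vehicle and 37.3 with AZA in MDS-L/CDA, and the quotient is called the relative signal below. Repeated spots of a probe differed by an SD of 0.19 to 0.30 on the log2 scale. The probe of CDA was dim on all 4 arrays, that is, not well above background, with relative signals of 0.105, 0.0943, 0.110 and 0.146 in the same order, and whether it matches the transduced sequence is not given in the sources used here, so it does not check the line labels. Of 10 blast and progenitor markers 7 or 8 were detected on each array, among them CD34, CD33 and PTPRC. MPO and FLT3 were not detected on any array.

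Of the 10 checkpoint genes, 5 were well above background on all 4 arrays and 5 on none. CD86, CD47, CD276, LGALS9 and PDCD1 were the detected genes, so 4 of the 7 ligands and 1 of the 3 receptors were measured. CD274, PDCD1LG2, CTLA4, CD80 and HAVCR2 were not detected by any of their 8 probes. Their signals, between 2.11 and 4.15 in scanner units, stayed below the lowest signal called well above background, which was 9.98 to 11.1 depending on the array. For these 5 genes no fold was computed, since neither group gave a level.

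PD-L1 and PD-L2, the ligands of PD-1, were therefore below detection with vehicle and with AZA in both lines. The CD274 probe printed above and the one further along the gene were both dim on every array, as were both PDCD1LG2 probes. CD80, the relative of CD86, was dim on every array while CD86 was not. The inhibitory T cell receptors CTLA4, with 2 probes, and HAVCR2 were dim as well. A dim signal bounds the level of these transcripts at the array's background and does not show that they were absent, and because the RNA came from whole cultures, fewer cells of a type and less RNA per cell cannot be told apart.

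**Figure D2:**
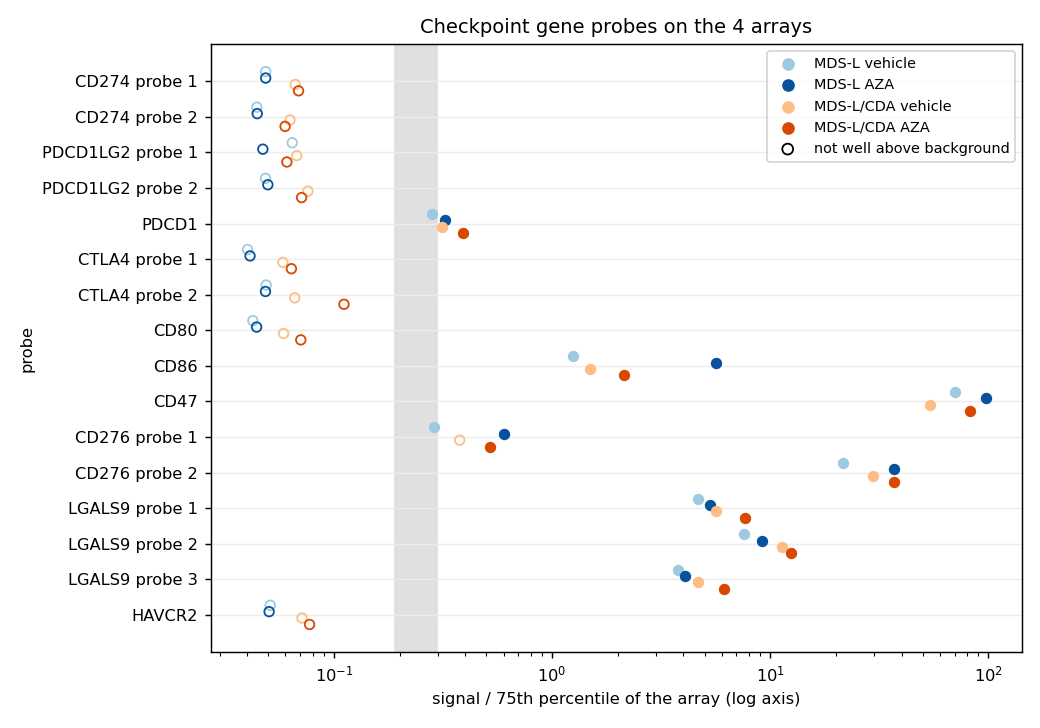
Relative signal (signal divided by the array's 75th percentile, log axis) of the 16 probes on the 4 arrays, with filled points well above background, open points not, and the grey band spanning the lowest detected signal of the 4 arrays; levels of different probes are not comparable. CD274, PDCD1LG2, CTLA4, CD80 and HAVCR2 lie below the band on all arrays, and the MDS-L AZA point of CD86 stands apart at 5.67 while its other points lie between 1.25 and 2.14.

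A difference between a pair of arrays was called when the ratio of relative signals was at least 2 and its Z score was at least 2. The Z score was the log2 ratio divided by the SD of log2 ratios among probes of like brightness, in 10 bins. Where the dimmer array was not well above background it was set to the higher of its signal and the lowest detected signal. Where the lowest detected signal was used, the ratio is written as at least that value. Its use keeps background noise from making large ratios.

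CD86, the costimulatory ligand of CD28 and CTLA4, was the member with the largest difference, read by its only probe. Its signal was 65.5 ± 6.98 with vehicle and 300.1 ± 30.1 with AZA in MDS-L, and 60.7 ± 6.92 with vehicle and 79.6 ± 8.56 with AZA in MDS-L/CDA (error of the scanner software, 1 array each). As relative signals these were 1.25, 5.67, 1.49 and 2.14. The MDS-L AZA array was the highest, and of the other arrays MDS-L/CDA AZA was the highest. In MDS-L the AZA to vehicle ratio was 4.55, a log2 ratio of 2.18 with a technical SD of 0.33, where the technical SD is that of repeated spots of like brightness on both arrays. The Z score was 3.17, and a ratio of 2.60 was needed at this brightness. CD86 was thus called higher, as 1 of the 5 measured members, beside 2.8% of the 17202 genes measured in that comparison. A log2 ratio as high or higher was found in 1.65% of genes. No member was called lower, beside 2.87% of genes. Of the 532 measured genes with at most 4 CG dinucleotides in the promoter window, CD86 among them, 7.14% were called higher in MDS-L. The share was 2.84% among all 9683 measured genes matched to a promoter, and the difference was not tested. A gene was measured when either array was well above background, so genes detected only with AZA entered both shares. By the brightest probe, 431 of the former and 9138 of the latter genes were detected with MDS-L vehicle. The limit of 4 was taken from CD86, so these shares are no support for its call.

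In MDS-L/CDA the CD86 ratio was 1.43, a log2 ratio of 0.52 with a technical SD of 0.49, and it was not called. No member was called in that line in either direction, beside 1.88% of 15410 genes called higher and 3.03% called lower. The log2 ratio of CD86 in MDS-L exceeded that in MDS-L/CDA by 1.66, which is a ratio of ratios of 3.17, and 1.00% of the 13962 genes detected on all arrays had a difference as high or higher. With 1 array per condition this difference between the lines was not tested.

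The same arrays, which share their values with the ratios above, gave the comparison of the lines. With vehicle, CD86 was 1.19 times as high in MDS-L/CDA as in MDS-L, a log2 ratio of 0.26 with a technical SD of 0.29, and its sign turned with median scaling, at -0.27, with no scaling, at -0.11, and with normexp, at -0.02. No member was called in that comparison, beside 1.19% of 16034 genes called higher and 2.64% called lower. With AZA, CD86 was 2.65-fold lower in MDS-L/CDA than in MDS-L, a log2 ratio of -1.41 with a technical SD of 0.52 and a Z score of -2.17. It was called lower as the only member, beside 2.54% of 16768 genes called lower and 2.34% called higher, and a ratio of 2.45 was needed. With a single SD for all probes in the Z score this call was lost, and the count of members called was 0.

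Among the 13962 genes detected on all 4 arrays, DDIT4 and NR2F2 were among the 3 whose pattern over the arrays was nearest to CD86. Likeness was the Euclidean distance between centred log2 signals, which was 0.12 for DDIT4 and 0.14 for NR2F2. DDIT4, a stress-induced inhibitor of mTORC1 signalling, had an AZA to vehicle ratio of 4.40 in MDS-L and 1.34 in MDS-L/CDA. NR2F2, an orphan nuclear receptor, had ratios of 4.34 and 1.26. Both thus had a higher ratio in MDS-L than in MDS-L/CDA, as the choice by likeness to CD86 requires.

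CD86 is found on monocytes, dendritic cells and B cells, so markers of other cell types were read beside it. Of 7 monocyte and dendritic markers on the array, 1 was detected with vehicle and 5 with AZA in MDS-L, against 0 with vehicle and 3 with AZA in MDS-L/CDA. Their summed relative signal, dim markers included, was 0.833, 2.28, 0.605 and 1.80 in that order. In MDS-L/CDA vehicle, where 0 were detected, it is a sum of dim signals only. The sum was thus higher with AZA in both lines, although none of these markers was called. CSF1R, the receptor of macrophage colony-stimulating factor, was at least 4.86-fold higher with AZA in MDS-L and at least 1.67-fold higher in MDS-L/CDA. FCGR3A and CD1C were not detected on any array, and CD14, detected in MDS-L vehicle, had a ratio of 0.669 with AZA in MDS-L. In MDS-L/CDA CD14 was dim with vehicle and at least 1.95-fold higher with AZA.

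Markers of lymphocytes were read too. Among B cell markers, CD79A and CD79B were detected on all arrays and MS4A1 and PAX5 on none. Of 8 T cell markers, 2 were detected with vehicle and 4 with AZA in MDS-L. In MDS-L/CDA 1 was detected with vehicle and 3 with AZA. Their summed relative signal, dim markers included, was 14.5, 25.3, 16.0 and 19.5. CD4 made up most of each sum, at 13.6, 18.5, 15.2 and 18.1 in the same order. The AZA to vehicle ratio of CD4 was 1.36 in MDS-L and 1.19 in MDS-L/CDA, and neither was called. CD3D, a T cell receptor chain, was at least 23.5-fold higher with AZA in MDS-L and was called. CD2, an adhesion receptor, was 5.94-fold higher by its brightest probe, whose vehicle signal was dim, and was called. Its other probes were dim on every array. CD3E, CD3G and CD8A were not detected on any array. Among progenitor markers the brightest probe of KIT, the stem cell factor receptor, was 47.3-fold higher with AZA in MDS-L and 3.58-fold higher in MDS-L/CDA. Another KIT probe was at least 5.20-fold higher in MDS-L and dim on both MDS-L/CDA arrays. The remaining KIT probe was dim on every array. CD38 fell 2.79-fold in MDS-L. The part of any of these markers in the CD86 result was not tested.

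CD47, the signal against phagocytosis, was bright on every array. Its signal was 3686 ± 369 with vehicle and 5139 ± 514 with AZA in MDS-L, and 2201 ± 220 with vehicle and 3085 ± 309 with AZA in MDS-L/CDA. The relative signals were 70.1, 97.1, 54.01 and 82.8. In each line the AZA array was the higher of the pair. The AZA to vehicle ratio was 1.38 in MDS-L, with a log2 ratio of 0.47 and a technical SD of 0.21, and 1.53 in MDS-L/CDA, with a log2 ratio of 0.62 and a technical SD of 0.34. Neither ratio was called, and in MDS-L the log2 ratio became -0.07 when arrays were scaled to their median. Between the lines the log2 ratio of MDS-L/CDA to MDS-L was -0.38 with vehicle and -0.23 with AZA, with technical SDs of 0.26 and 0.30.

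SIRPA, the receptor of CD47, was detected on all arrays, with relative signals of 1.98, 1.96, 1.38 and 1.96 in the order of the groups above. Its AZA to vehicle ratio was 0.989 in MDS-L and 1.41 in MDS-L/CDA, and neither was called. CD28, the activating receptor of CD80 and CD86, was dim on every array by both of its probes. As scaled here, the MDS-L/CDA vehicle array was the low one for SIRPA and the other arrays were nearly level. With vehicle the SIRPA ratio of MDS-L/CDA to MDS-L was 0.699, with a Z score of -0.91, and was not called. SIRPA was not read under the other scalings.

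CD276, encoding B7-H3, had a bright probe and a dim probe. The bright one had relative signals of 21.5 with vehicle and 36.8 with AZA in MDS-L, and 29.5 with vehicle and 36.9 with AZA in MDS-L/CDA. As scaled here, MDS-L vehicle was the lowest array and the AZA arrays of both lines were level. Its AZA to vehicle ratio was 1.71 in MDS-L, a log2 ratio of 0.78 with a technical SD of 0.26, and 1.25 in MDS-L/CDA, a log2 ratio of 0.32 with a technical SD of 0.36. Neither ratio was called. The ratio of MDS-L/CDA to MDS-L was 0.46 on the log2 scale with vehicle, with a technical SD of 0.27. It became -0.07 when arrays were scaled to their median. With AZA the log2 ratio of the lines was 0.00, with a technical SD of 0.35. That value became -0.27 with quantile normalization and in the authors' table, and -0.50 with no scaling.

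The dim CD276 probe, whose sequence is given above, read 15.1 ± 3.02 with vehicle and 31.8 ± 4.12 with AZA in MDS-L, and 15.4 ± 3.05 with vehicle and 19.3 ± 3.40 with AZA in MDS-L/CDA, in scanner units. It was dim in MDS-L/CDA with vehicle. In MDS-L its AZA to vehicle ratio was 2.09, but at this brightness a ratio of 5.08 was needed, so it was not called. In MDS-L/CDA the ratio to that dim vehicle signal was 1.37, a log2 ratio of 0.46 with a technical SD of 0.38. Both CD276 probes were thus higher with AZA than with vehicle in each line, and with a ratio of 2 alone as the rule CD276 joined CD86 among the genes called in MDS-L.

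LGALS9, encoding galectin-9, was detected by all 3 probes on all arrays. The probe at the highest coordinate had relative signals of 7.58 with vehicle and 9.18 with AZA in MDS-L, and 11.4 with vehicle and 12.4 with AZA in MDS-L/CDA. The probe in the middle gave 4.66, 5.27, 5.62 and 7.66, and the probe at the lowest coordinate gave 3.79, 4.08, 4.69 and 6.15. As scaled here, each probe was lowest in MDS-L vehicle and highest in MDS-L/CDA AZA. The AZA to vehicle log2 ratio was 0.28, 0.18 and 0.11 in MDS-L and 0.13, 0.45 and 0.39 in MDS-L/CDA, for the 3 probes in that order. All 6 values were within the technical SD, which was 0.35 to 0.53. Scaling to the median made the value of the brightest probe -0.27 in MDS-L, and normexp background correction made it -0.0034 in MDS-L/CDA.

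The LGALS9 values are uncertain as to their source. The array also has a probe named LGALS9C, for which the files list LGALS9 transcripts too, so signal of the relatives cannot be separated by name. That probe had relative signals of 172.4, 227.6, 215.2 and 227.5. As scaled here it was lowest in MDS-L vehicle, as were the LGALS9 probes, which share the divisor of each array. Before scaling, the LGALS9 probes in the middle and at the lowest coordinate were lowest in MDS-L/CDA vehicle, at 228.9 and 191.1 in scanner units. The AZA to vehicle ratio of the LGALS9C probe was 1.32 in MDS-L and 1.06 in MDS-L/CDA. HAVCR2, which encodes the receptor of galectin-9, was dim on all arrays.

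PDCD1, encoding PD-1, was the only receptor among the members to be detected. Its signal was 14.9 ± 2.68 with vehicle and 17.2 ± 2.97 with AZA in MDS-L, and 12.7 ± 2.78 with vehicle and 14.6 ± 2.98 with AZA in MDS-L/CDA, close to the lowest detected signal. The 4 values overlapped within these errors. The AZA to vehicle log2 ratio was 0.20 in MDS-L and 0.33 in MDS-L/CDA, with technical SDs of 0.42 and 0.43, for which the scanner software's error stood in on every array but MDS-L AZA because too few repeated probes were as dim. The value in MDS-L became -0.35 when arrays were scaled to their median and -0.01 both with quantile normalization and in the authors' table. A PDCD1 ratio of 5.08 in MDS-L and 3.56 in MDS-L/CDA would have been needed for a call.

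**Figure D3:**
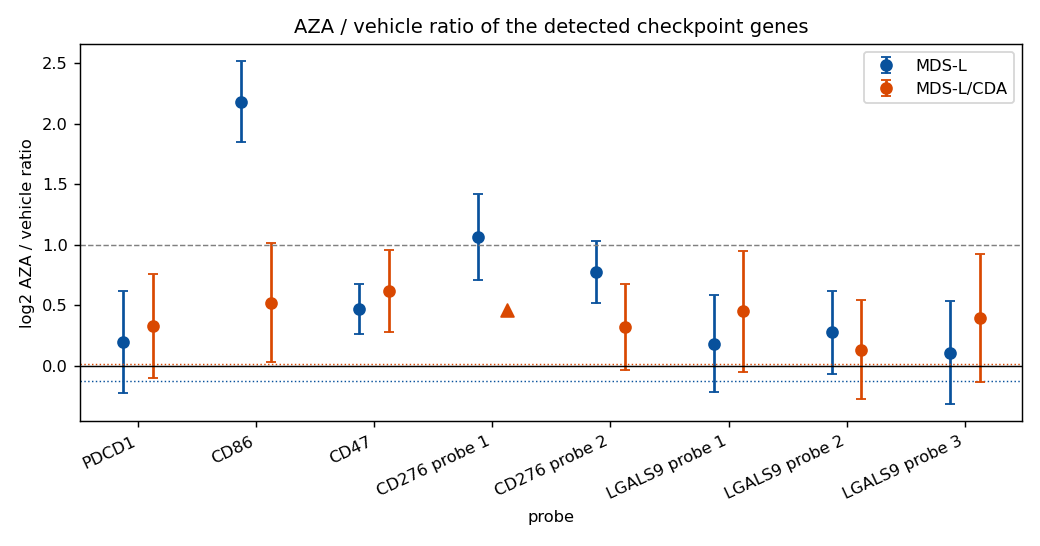
Log2 ratio of AZA to vehicle for the 8 probes of the 5 detected genes in MDS-L (blue) and MDS-L/CDA (orange), with bars of 1 technical SD, a triangle where the vehicle array was dim, dotted lines at the median of all genes in each line and a dashed line at a ratio of 2. CD86 in MDS-L stands at 2.18, and of the other values only the dim CD276 probe in MDS-L passes the dashed line, at a ratio of 2.09; the values of CD47, LGALS9 and PDCD1 in MDS-L turned below 0 when arrays were scaled to their median, that of PDCD1 also with quantile normalization and in the authors' table, and that of the brightest LGALS9 probe in MDS-L/CDA with normexp.

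Over the 5 measured members, the median log2 AZA to vehicle ratio was 0.47 in MDS-L, with 5 of 5 ratios above 1, beside a median of -0.13 and 41.1% of ratios above 1 among 17169 genes. In MDS-L/CDA it was 0.33, again with 5 of 5 above 1, beside 0.015 and 51.7% among 15386 genes. The sign of these ratios depended on the scale of the arrays. When arrays were scaled to their median, the median of all genes in MDS-L moved to -0.69 and the ratios of CD47, LGALS9 and PDCD1 turned below 1, while CD86 and CD276 stayed above 1, at log2 ratios of 1.64 and 0.24. In MDS-L 4 of 5 ratios were above 1 with quantile normalization and in the authors' table, with PDCD1 just below, and with normexp 4 of 5 were in MDS-L/CDA, with LGALS9 just below. Between the lines the median member ratio of MDS-L/CDA to MDS-L was 0.26 on the log2 scale with vehicle and 0.0032 with AZA, beside 0.076 and 0.19 over all genes.

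**Figure D4:**
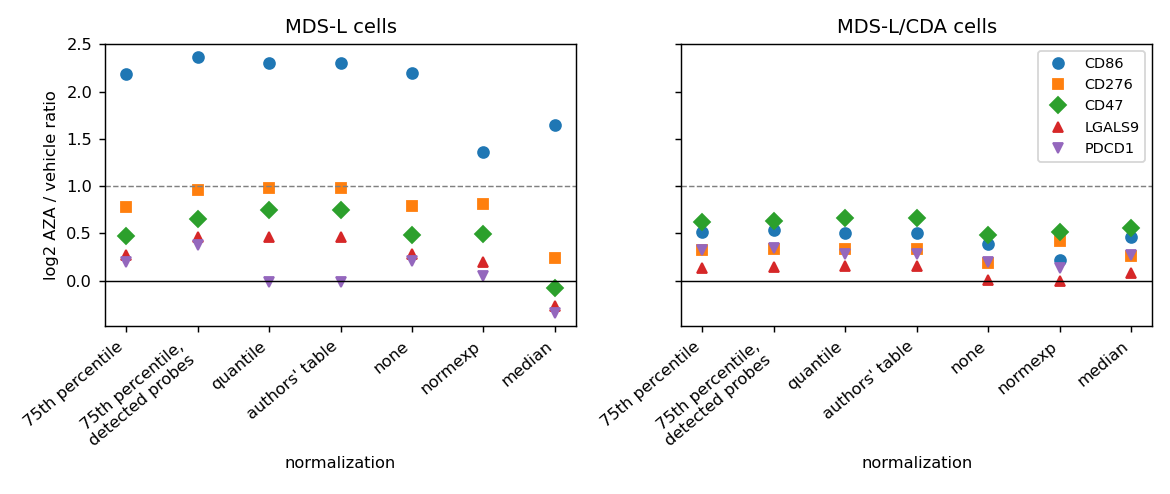
Log2 AZA to vehicle ratio of the main probe of each detected gene (vertical axis) under 7 ways of bringing the arrays to 1 scale (horizontal axis), in MDS-L (left) and MDS-L/CDA (right), with a dashed line at a ratio of 2. CD86 in MDS-L runs from 1.36 with normexp to 2.37 with the 75th percentile of detected probes and stays above the line, CD276 stays between 0.24 and 0.99, and CD47, LGALS9 and PDCD1 cross 0 in MDS-L with median scaling, PDCD1 also with quantile normalization and the authors' table, while in MDS-L/CDA LGALS9 crosses 0 with normexp.

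Other checkpoint genes were read from 3 lists, of receptors, ligands and regulators. In MDS-L, 14 of 22 other receptors were measured, with 0 called higher and 1 lower at a median log2 ratio of 0.13. LAIR1, an inhibitory collagen receptor, was the gene called lower, with relative signals of 88.6 with vehicle and 39.2 with AZA, a ratio of 0.443, while its dimmer probe gave 0.688. Of 25 other ligands 14 were measured, and 0 were called in either direction at a median of 0.20. Of 23 regulators of PD-L1 and CD47, such as JAK and STAT proteins, 21 were measured, with 0 higher and 1 lower at a median of -0.31. SPOP, an adaptor of a ubiquitin ligase for PD-L1, was the gene called lower, 3.10-fold, from 10.3 with vehicle to 3.31 with AZA.

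In MDS-L/CDA, 12 of the other receptors were measured, with 0 called higher and 1 lower at a median of 0.19. CD96, a receptor of the nectin family ligand PVR, fell from a relative signal of 15.9 with vehicle to 7.59 with AZA, a ratio of 0.478. In MDS-L CD96 had relative signals of 18.8 with vehicle and 9.40 with AZA, and it was not called, since its ratio and its Z score both fell just short of 2. Of the other ligands 12 were measured, with 0 higher and 1 lower at a median of 0.31. HMGB1, a chromatin protein that is also a ligand of TIM-3, fell 2.50-fold from 162.8 to 65.2 and had a ratio of 0.553 in MDS-L, where it was not called. Of the regulators 21 were measured and 0 were called, at a median of -0.07. Over all measured genes 2.8% were called higher and 2.87% lower in MDS-L, and 1.88% and 3.03% in MDS-L/CDA. Their median log2 ratio was -0.13 in MDS-L and 0.015 in MDS-L/CDA. The members had 1 gene called higher in MDS-L and these lists had 0. At these shares such small counts do not set the members apart, and the difference was not tested.

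**Figure D5:**
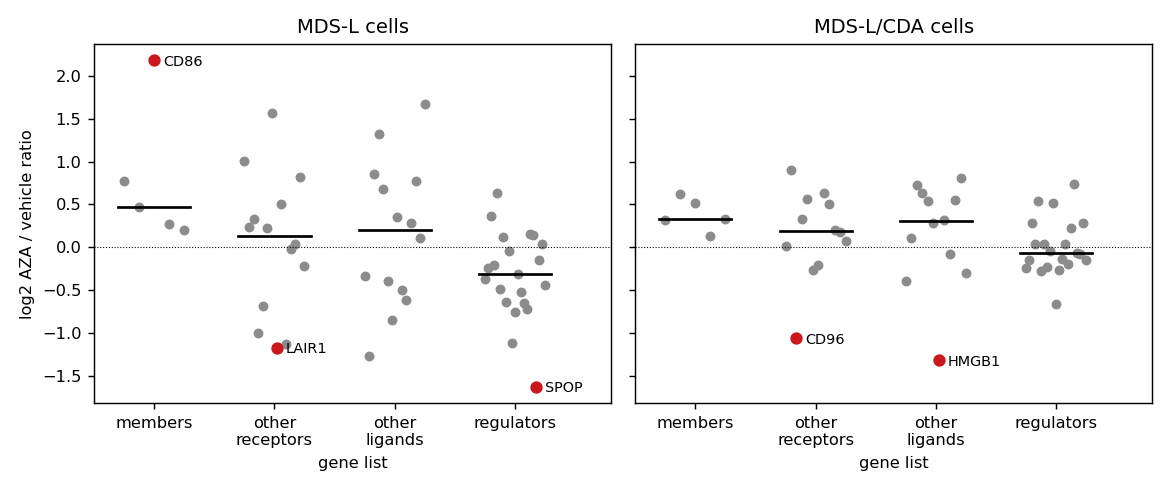
Log2 AZA to vehicle ratio of each measured gene of the members and of the lists of other receptors, other ligands and regulators in MDS-L (left) and MDS-L/CDA (right), with red points for called genes and black bars for medians. CD86 is the called member in MDS-L, LAIR1 and SPOP are called lower there, and CD96 and HMGB1 are called lower in MDS-L/CDA.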

How the data were processed

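RNA of the 4 groups was hybridised to single-colour Agilent arrays, 1 per group, and read with Agilent Feature Extraction 10.7.1.1 per the file headers. The deposited scanner output holds background-subtracted intensity on a linear scale for each spot, with no scaling between arrays, and the authors' value table holds intensity that matches quantile normalization of the 4 arrays. The files place probes on hg19 and carry the gene names of the array's design. Here, controls and outlier spots were dropped, which removed all spots of 16 probes. The log2 signals of the remaining spots of a probe were averaged, and each array was scaled to its 75th percentile.

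The threshold of 2 for the ratio and for the Z score follows the study's methods, whose formula for the Z score is not given in the sources used here, so the SD was taken in 10 bins of equal size by brightness. A gene was called when at least 1 probe was, and its main probe was the one with the highest mean log2 signal. The spot SD came from probes with at least 9 spots within 1 log2 unit of the probe's signal, or from the scanner software's error where fewer than 5 such probes existed. Named were the 10 members by every probe, listed genes called in an AZA comparison, SIRPA and CD28, and the 3 genes nearest to the member of largest range. Marker genes, CDA and LGALS9C were named after their values were seen. The results of 1 gene that these rules name are not reported here. The members and lists were chosen with earlier results of these data known. Of 9 monocyte and dendritic markers, LYZ and CD68 matched no gene name. Promoter sequences are from RefSeq on GRCh38.p14 and were matched by symbol. Alternatives were quantile normalization, median scaling, scaling to detected probes, no scaling, normexp in limma 3.58.1 with an offset of 50, the authors' table, other filters on dim probes, the mean over probes and other call rules. Python 3.11.15, numpy 2.4.6, pandas 2.3.3 and R 4.3.3 were used. The calling was tested on simulated data whose planted changes were larger than that of CD86 and lay in probes brighter than CD86 with vehicle. That test therefore does not check a call at the brightness and ratio of CD86. The number of arrays limits the precision.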

Additional observations from a re-analysis of the deposited data

How the results depend on the processing

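CD86 was called higher with AZA in MDS-L under every alternative run, with a log2 ratio between 1.36 and 2.37. Without a Z score, 2 members were called in MDS-L at a ratio of 2 and also 2 at a ratio of 1.5, CD86 and CD276 in both cases. At a ratio of 1.5 without a Z score, 1 was called in MDS-L/CDA, CD47, and 2 between the lines with AZA, CD86 and LGALS9. The share of all genes at a ratio of 1.5 was not computed, so the counts at that ratio are not read further. With all probes in 1 bin, 0 were called between the lines with AZA. The other 47 counts under alternatives stayed within 1.5 times the count reported.

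The median log2 ratio of measured members with AZA in MDS-L was -0.073 with median scaling and 0.13 with no filter on dim probes. Between the lines with AZA it was -0.50 with no scaling and 0.47 with no filter on dim probes. Between the lines with vehicle it was -0.11 with no scaling and -0.27 with median scaling. The other 30 medians under alternatives moved by less than the median technical SD of the detected members in that comparison. Among them, the MDS-L median of 0.75 with quantile normalization and in the authors' table is the value of CD47 and moved by more than the technical SD of CD47 itself. Of the 140 log2 ratios of single members, 118 moved by less than the technical SD of that member. Without the filter on dim probes the members below background enter at their computed signals, and the other causes were not tested. No paired analysis was possible because each condition was 1 array, and for the same reason no array could be left out. Signal over background limits CD274, PDCD1LG2, CTLA4, CD80 and HAVCR2, whose levels have only an upper bound, and PDCD1, which lay close to background.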
